A study of Drosophila melanogaster with 8 samples.

Results

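Chitin is a polymer of N-acetylglucosamine that stiffens the insect cuticle, lines the tracheal tubes and forms the peritrophic matrix, the sheet that separates food from the midgut cells. Chitin synthases build the polymer at the apical cell membrane from UDP-N-acetylglucosamine, and secreted chitin deacetylases remove acetyl groups from it, which changes how the fibres pack and what binds to them. The genes described here are the 7 that code for these enzymes in the table of counts, of 12082 rows that name a gene. They were chosen by name, with earlier results of these data known. The synthases are kkv (CG2666, on chromosome arm 3R) and Chs2 (CG7464, 3L). The deacetylases are serp (CG32209, 3L), verm (CG8756, 3L), Cda4 (CG32499, X), Cda5 (CG31973, 2L) and Cda9 (CG15918, 2R). All 7 had a row.

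RNA was sequenced from whole Drosophila melanogaster females, 1 week old and raised on food with 8% yeast and 9% sugar, in 4 libraries per genotype. The mutants carried btl>DHR78 together with the allele pair DHR78[1]/[3], and the controls carried btl>DHR78 alone. Thus both genotypes had a transgene for Hr78 (DHR78), a nuclear receptor, under the driver of btl, the gene of the tracheal FGF receptor, and the labels call the mutants rescued. The comparison asks which transcripts differ between females with and without the allele pair when both carry the transgene. Cells where the transgene is on carry the pair too in mutants, so that tissue is not matched between the genotypes. Each library pooled RNA of 2 collections of 12 females, and p-values measure the spread between such pools. In whole animals, fewer cells of a type and less RNA per cell cannot be told apart.

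Total counts ranged between 22608378 and 33054191 in the mutant libraries and between 19544675 and 28106635 in the control libraries. Values are CPM, counts relative to library size after scaling for composition. A floor of 3 counts corresponded to 0.0916 to 0.155 CPM, and values under it were left as they are. Hr78 was at 71.6 ± 1.71 CPM in mutants and 123 ± 4.22 CPM in controls (mean ± SD, n = 4 each), and reads of the transgene are not separated from those of the gene. The 12 genes of the ovary list summed to between 30600 and 38000 CPM in mutants and between 27700 and 47300 CPM in controls. Most of this sum came from the yolk protein genes Yp1, Yp2 and Yp3, so it is not a measure of the ovary alone. Yp1 was at 10700 to 14300 CPM in mutants and 10800 to 16300 CPM in controls. Of 21 genes of testis and male accessory gland, 19 were under 2 CPM in all libraries but mutant replicate 2. The sum of all 21 was 296 CPM in mutant replicate 2, 42.1 to 44.9 CPM in the other mutants and 39.7 to 44.7 CPM in controls. Most of the sum outside mutant replicate 2 came from 1 gene, Acp95EF, which was at 35.5 to 38.4 CPM in controls. In mutants it was at 37.0 to 57.8 CPM. The value of 57.8 CPM exceeds the whole sum of each other mutant, so it was that of mutant replicate 2. Across the 10525 tested genes, 19.6% had an adjusted p under 0.05 (edgeR's quasi-likelihood test with Benjamini-Hochberg adjustment), 8.46% higher and 11.1% lower in the mutant.

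Of the 7 genes, 6 had enough counts to be tested. Transcripts of 4 fell in the mutant (kkv, Chs2, serp and Cda5), that of Cda9 rose, and verm did not pass the threshold, while Cda4 was too low for the test. For 5 of the 7 the libraries of the genotypes did not overlap, as was the case for 22.4% of all rows. The tested genes other than kkv were at or above the filter's limit of 0.422 CPM in all 4 libraries of both genotypes. kkv reached it in 3 mutant and 4 control libraries. Its controls, where it was higher, thus met the filter on their own, and its mutants did not. The median log2 fold change of the 6 was -0.58, against 0.01 for all tested genes. Since the genes were chosen with earlier results of these data known, these comparisons with all genes carry no test.

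**Figure D1:**
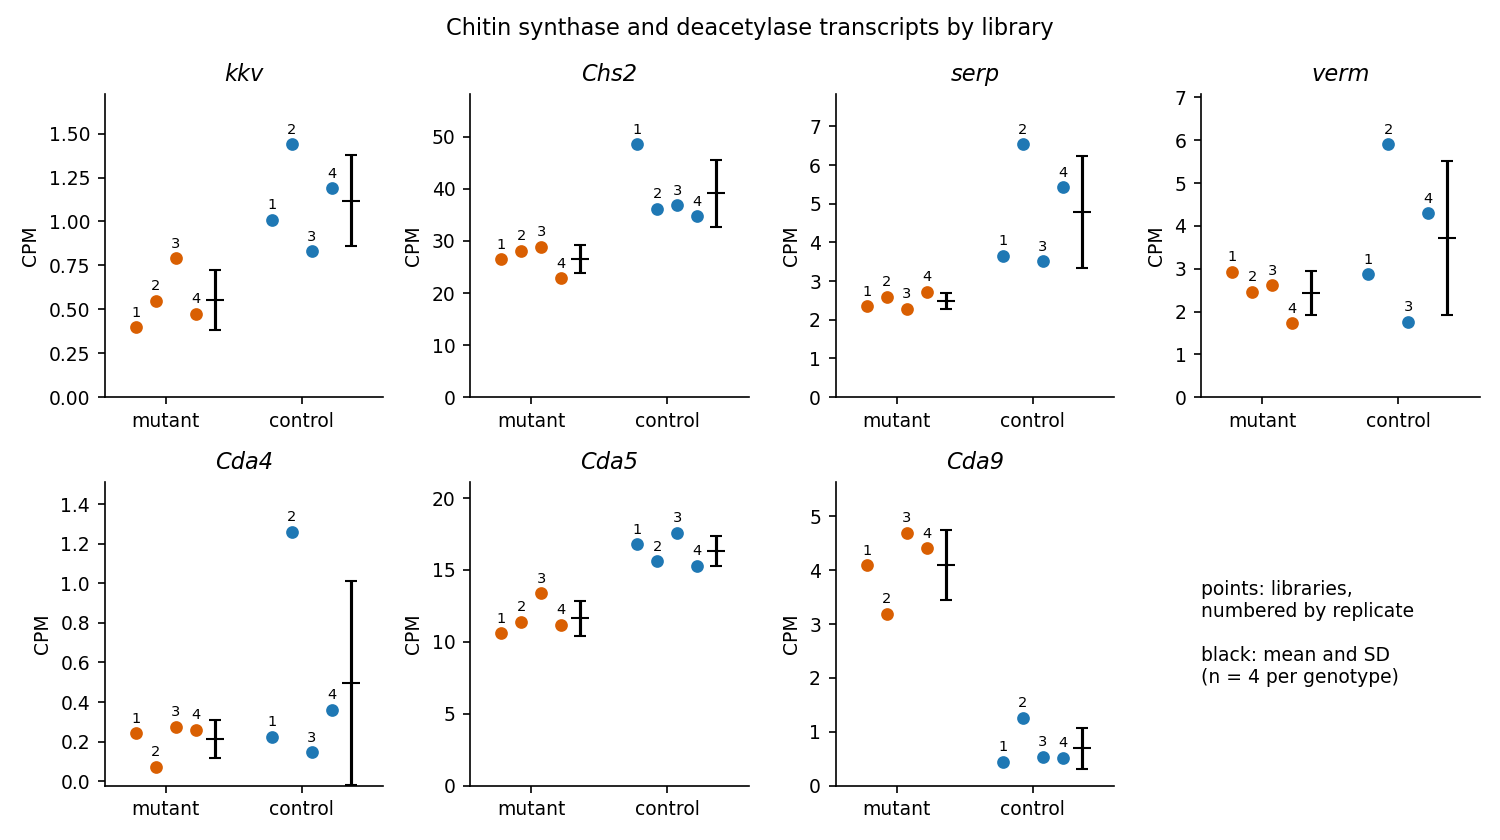
Level in CPM (y axis, linear, a scale per gene) of the 7 genes in mutant and control females, with points for libraries numbered by replicate and black bars for the mean and SD (n = 4 per genotype). The genotypes are apart for kkv, Chs2, serp, Cda5 and Cda9, with Cda9 higher and the other 4 lower in the mutant, and they overlap for verm and Cda4.

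Cda9 was the gene of this family that rose, and its change was the largest of the 6. By sequence the protein belongs to the deacetylases that have no chitin-binding domain, a group known from the midgut of the beetle Tribolium. In mutants it was at 4.09, 3.19, 4.70 and 4.41 CPM (replicates 1 to 4), against 0.448, 1.26, 0.538 and 0.516 CPM in controls. Every mutant library was above every control library, and control replicate 2 was the highest control. The counts behind these values were 87 to 134 reads per mutant library and 10 to 28 per control library. The log2 fold change was 2.56 (standard error 0.30), a 5.9-fold rise with a 95% interval of 3.76 to 9.26, and the adjusted p was 0.000304 (edgeR). Among the 890 genes that were higher in the mutant, it ranked 16 by the size of its log2 fold change. Without control replicate 2 the log2 fold change was 3.03 and without mutant replicate 2 it was 2.66.

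serp (serpentine) and verm (vermiform) encode secreted deacetylases with a chitin-binding domain, known for limiting the length of tracheal tubes in the embryo. They lie next to each other on 3L, on the same strand and with no shared exon in the Release 6 annotation. serp was at 2.35, 2.60, 2.29 and 2.73 CPM in mutants, against 3.66, 6.54, 3.52 and 5.42 CPM in controls. All mutant libraries were lower than all controls, and the mutants lay close together while control replicates 2 and 4 stood higher than the other two. The level of serp fell to 52.1% of the control, a log2 fold change of -0.94 (standard error 0.21, edgeR adjusted p 0.00987).

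verm was at 2.93, 2.46, 2.61 and 1.73 CPM in mutants, against 2.87, 5.91, 1.76 and 4.29 CPM in controls. The genotypes overlapped, since control replicates 1 and 3 were among the mutant values and control replicates 2 and 4 above them. Its log2 fold change was -0.60 with a 95% interval of -1.35 to 0.15 and an adjusted p of 0.241 (edgeR), so a fall of the size seen for serp lies within the interval. The control libraries of verm differed by 4.36 times the spread that counting alone gives, and those of serp by 3.17 times, while the mutant libraries of serp were at 0.662 times. To ask whether the neighbours differed in their response, the counts were compared within each library. The log2 ratio of serp to verm was 0.06 ± 0.43 in mutants and 0.45 ± 0.37 in controls (SD, n = 4 each), a difference of -0.40 (exact two-sided permutation test, p = 0.2). A different response of the pair was therefore not shown.

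Beside serp, 5 of 11 tested markers of the trachea were lower in the mutant, none was higher and 6 missed the threshold, with a median log2 fold change of -0.13. The list had a summed level of 384 to 392 CPM in mutants and 399 to 419 CPM in controls. Of this sum, ttk alone held 168 to 176 CPM in mutants and 165 to 175 CPM in controls. The largest falls, named after their values were seen, were those of trh and uif. trh, the regulator of tracheal fate, fell to 2.77 ± 0.297 CPM in mutants, against 4.58 ± 0.900 CPM in controls, and uif, which encodes an apical membrane protein of tracheal cells, to 7.77 ± 0.910 CPM in mutants, against 17.4 ± 1.81 CPM in controls (SD, n = 4 each). The others called lower were dpy (log2 fold change -0.46), stumps (-0.33) and pnt (-0.24). The change of dpy was -0.02 once a trend with transcript length, described below, was removed. btl itself was at 6.14 ± 0.622 CPM in mutants and 6.35 ± 0.681 CPM in controls, with an adjusted p of 0.790 (edgeR). The log2 fold changes of others that missed the threshold were 0.11 for pio, 0.06 for pck, 0.01 for ttk, 0.00 for sinu and -0.13 for vvl. The part of these cells in the values of serp was not tested.

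Cda5 and Cda4 encode further deacetylases with a chitin-binding domain, whose roles in the fly are less well known. Cda5 was at 10.6, 11.4, 13.4 and 11.2 CPM in mutants, against 16.8, 15.6, 17.6 and 15.3 CPM in controls. No mutant library reached a control library, and both genotypes varied little, with coefficients of variation of 10.4% in mutants and 6.55% in controls. It fell by 0.49 on the log2 scale, to 71.1% of the control level (standard error 0.09, edgeR adjusted p 0.00364). Cda5 has 8 annotated transcripts, which the counts do not separate, and its 10793 exonic bases make it the longest of the 7 genes.

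The difference between genotypes varied with exonic length across the tested genes, with 102 of 214 genes over 10 kb and 317 of 1090 genes of 5 to 10 kb called lower. The median log2 fold change was -0.23 for 214 tested genes with over 10 kb of exon, -0.12 for 1090 genes of 5 to 10 kb and 0.10 for 1532 genes of up to 1 kb. With an offset that removes this trend in each library, the log2 fold change of Cda5 was -0.30 with an adjusted p of 0.043, and that of kkv, with 5701 exonic bases, was -0.91 with an adjusted p of 0.0446 (edgeR). For Chs2, with 4509 exonic bases, it was -0.49. All 5 genes past the threshold stayed past it with the offset. The part of length in these values was not tested further.

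Cda4 was at the edge of detection. It had 8, 2, 7 and 6 reads in the mutant libraries (0.244, 0.0733, 0.276 and 0.260 CPM), against 6, 28, 3 and 7 reads in the control libraries (0.224, 1.26, 0.147 and 0.362 CPM). Apart from control replicate 2 the values of both genotypes fell in 1 range, and the CPM values gave p = 0.371 in a two-sided exact permutation test. A difference between the genotypes was not detectable at this depth.

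The synthases are known to divide the work by tissue. Chs2 makes the chitin of the midgut, and kkv (krotzkopf verkehrt) makes that of epidermis, trachea and other tissues that carry a cuticle. Chs2 was at 26.5, 28.1, 28.9 and 22.9 CPM in mutants, against 48.6, 36.2, 36.9 and 34.8 CPM in controls. The mutants were all below the controls, and control replicate 1 stood above the other controls. Chs2 fell to 67.9% of the control level, a log2 fold change of -0.56 (standard error 0.11, edgeR adjusted p 0.00945). Without control replicate 1 the log2 fold change was -0.43 and the adjusted p 0.00546.

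kkv was low in these adults, at 0.397, 0.550, 0.790 and 0.476 CPM in mutants, against 1.01, 1.44, 0.831 and 1.19 CPM in controls. The genotypes did not overlap, but the highest mutant (20 reads) and the lowest control (17 reads) were close. The log2 fold change was -1.02 (standard error 0.28, 95% interval -1.62 to -0.41), and the adjusted p was 0.0261 (edgeR). This call was lost when control replicate 2 (adjusted p 0.0734) or 4 (0.0614), or mutant replicate 1 (0.0691) or 4 (0.0672), was left out. It was also lost with no filter on low counts (0.0927). Thus 3 rather than 4 members fell in those fits.

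Within a library, the log2 ratio of Chs2 to kkv was 5.58 ± 0.35 in mutants and 5.12 ± 0.45 in controls (SD, n = 4 each). The difference of 0.46 did not pass an exact two-sided permutation test (p = 0.171), and the genotypes overlapped. The log2 ratio of Cda9 to Chs2 was -2.70 ± 0.32 in mutants and -5.89 ± 0.79 in controls, a difference of 3.19. This ratio carries no test, since Cda9 was higher and Chs2 lower in every mutant library than in every control library, which fixes that the genotypes do not overlap. In linear terms there were 0.155, 0.114, 0.163 and 0.194 reads of Cda9 per read of Chs2 in mutant libraries, against 0.0096, 0.0356, 0.0152 and 0.0156 in control libraries.

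**Figure D2:**
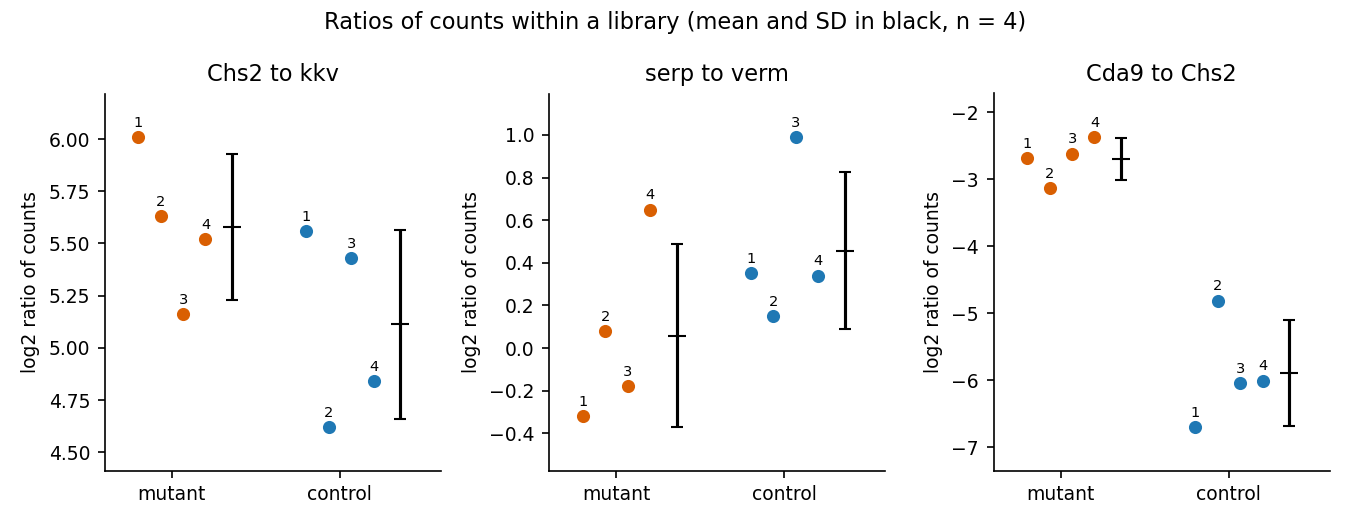
Log2 ratio of the counts of 2 genes within each library (y axis), for Chs2 to kkv, serp to verm and Cda9 to Chs2, with libraries numbered by replicate and the mean and SD in black (n = 4 per genotype). The genotypes overlap in the first and second panels, and for Cda9 to Chs2 the mutants lie between -3.13 and -2.37, above the controls at -6.70 to -4.81.

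Of 21 tested genes of midgut enterocytes and their digestive enzymes, 13 were lower in the mutant, 1 (Amy-d) was higher and 7 missed the threshold. The 13 were all protease genes, namely the listed Jonah genes, alphaTry, thetaTry and zetaTry. Those that missed the threshold had log2 fold changes of 1.12 for Mal-A6, 0.66 for Mal-A1, 0.40 for betaTry and 0.03 for Amy-p. For mex1, Npc2d and mag they were -0.30, -0.36 and -0.69. The list summed to 4170 to 5650 CPM in mutants and 7770 to 13400 CPM in controls. Of this sum, Jon65Aiv alone held 1320 to 2050 CPM in mutants and 2830 to 5190 CPM in controls. Genes of foregut and hindgut summed to between 505 and 512 CPM in mutants and between 508 and 594 CPM in controls, with 1 of 9 lower and none higher. Beside kkv, 3 of 9 tested genes of epidermis and adult cuticle were higher and none lower, and the list of 14 summed to between 75.3 and 83.4 CPM in mutants and between 64.1 and 67.2 CPM in controls, while the median log2 fold change of the 9 was -0.15. The 3 that rose, named after their values were seen, were Cpr72Ec, a cuticle protein gene (log2 fold change 1.66), ple, the tyrosine hydroxylase of cuticle tanning and of dopamine neurons (0.39), and Ddc, the dopa decarboxylase (0.20, adjusted p 0.0446, edgeR). The call of Ddc was lost without any 1 library other than mutant replicate 4 (adjusted p 0.0548 to 0.121). The other 6 missed the threshold, at -0.95 for Vajk3, -0.73 for TwdlT, -0.33 for Cpr66D, -0.29 for Vajk4, -0.15 for Vajk2 and 0.01 for Cpr73D. The part of these tissues in the values of the synthases and of Cda9 was not tested.

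**Figure D3:**
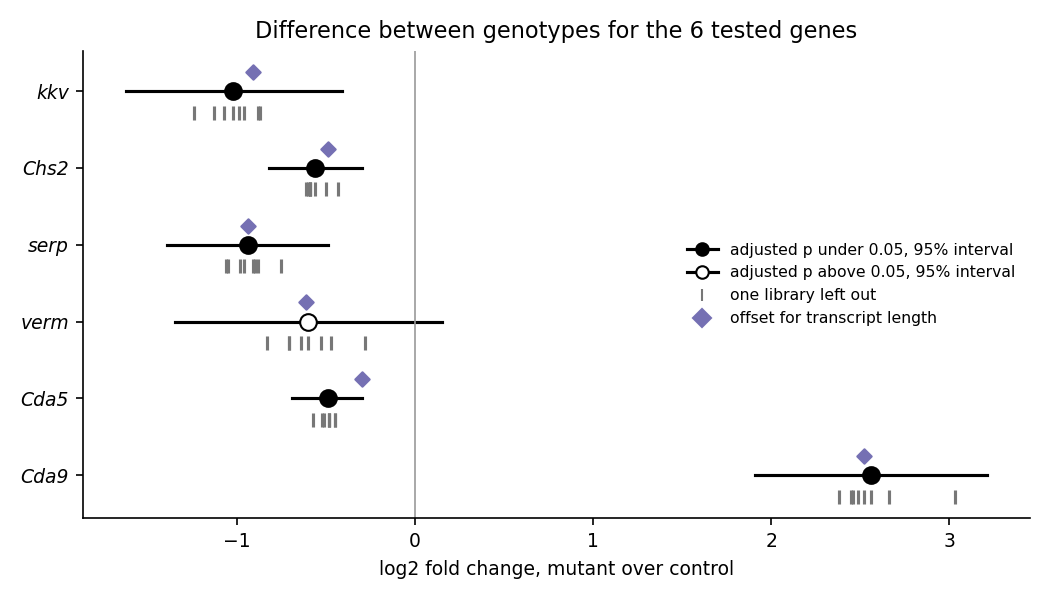
Log2 fold change of mutant over control (x axis) for the 6 tested genes, with 95% intervals; filled circles passed an adjusted p of 0.05 and the open circle (verm) did not. Grey ticks show the value with 1 library left out and diamonds the value with an offset for transcript length, which moves Cda5 from -0.49 to -0.30 and Cda9 from 2.56 to 2.52.

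Compared per kilobase of annotated exon, Chs2 was the most abundant of the 7 transcripts in both genotypes, at 5.90 ± 0.591 CPM per kb in mutants and 8.67 ± 1.41 CPM per kb in controls (n = 4 each). Cda9 came second in mutants at 2.50 ± 0.400 CPM per kb, whereas in controls it was at 0.422 ± 0.234 CPM per kb, below serp, verm and Cda5. In mutants, Cda5 (1.08 ± 0.112), verm (1.03 ± 0.214) and serp (0.981 ± 0.0811 CPM per kb) followed and did not differ beyond their spread. In controls, serp (1.88 ± 0.574), verm (1.57 ± 0.759) and Cda5 (1.51 ± 0.0993 CPM per kb) followed Chs2 with overlapping ranges. Cda4 and kkv were lowest, at 0.110 ± 0.0488 and 0.097 ± 0.0298 CPM per kb in mutants, and at 0.258 ± 0.268 and 0.196 ± 0.0459 CPM per kb in controls. Of the summed level of the 2 synthases, Chs2 made up 98.4% ± 0.39 in mutants and 97.7% ± 0.697 in controls.

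The 5 deacetylases summed to 5.70 ± 0.474 CPM per kb in mutants and 5.64 ± 1.69 CPM per kb in controls (SD, n = 4 each), a ratio of 1.01, and the genes that made up the sum differed. Cda9 made up 38.2% to 47.5% of the sum in mutants and 5.38% to 9.72% in controls. serp made up 14.4% to 20.1% in mutants and 31.3% to 36.4% in controls. Neither range overlapped between the genotypes, whereas those of verm (12.9% to 21.5% in mutants, 17.8% to 31.4% in controls) and Cda5 (17.0% to 20.6% in mutants, 18.2% to 39.2% in controls) did. The share of Cda4 was 0.743% to 2.37% in mutants and 1.82% to 8.22% in controls. These sums were formed after the values of the single genes had been seen and carry no test. They depend on the length correction: in CPM without it, the mutant sum was 0.802 times the control sum and the share of Cda9 was 17.0 percentage points higher, against 1.01 times and 36.5 points with it.

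**Figure D4:**
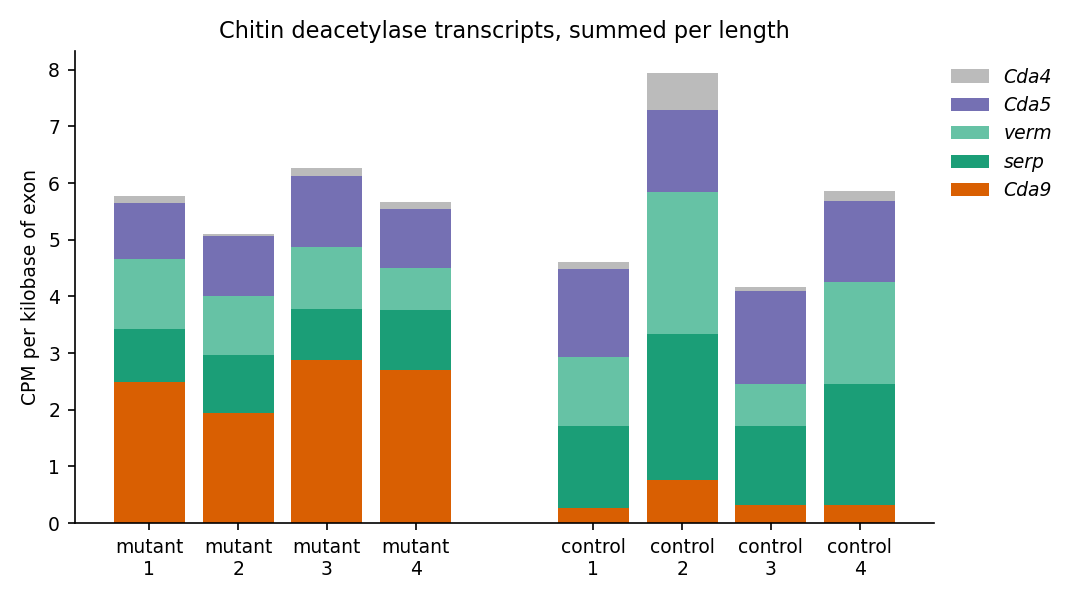
Summed level of the 5 chitin deacetylases in each library, in CPM per kilobase of annotated exon (y axis, from 0), stacked by gene, with mutant libraries on the left and control libraries on the right. The mutant bars reach 5.10 to 6.25 and the control bars 4.17 to 7.94, and Cda9 fills 38.2% to 47.5% of each mutant bar and 5.38% to 9.72% of each control bar.

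Control replicate 2 stood out within this family. It was the highest control for 5 of the 7 genes (kkv, serp, verm, Cda4 and Cda9), while it was the highest control for 24.4% of all tested genes. Its level was 5.18 times the mean of the other controls for Cda4, 2.52 times for Cda9, 1.99 times for verm, 1.56 times for serp and 1.43 times for kkv. For Chs2 and Cda5 it was 0.902 and 0.941 times that mean. Without this library serp was still lower in the mutant (log2 fold change -0.75, adjusted p 0.0253, edgeR), and verm had a log2 fold change of -0.28.

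The genes whose log2 CPM followed each member most closely over the 8 libraries were sought among 9403 genes of at least 2 CPM. The libraries are of both genotypes, so a high Pearson correlation (r) can come from the difference between genotypes alone. Nearest to Chs2 was CG9825 (r = 0.994), then CG14205 (0.985) and CG15170 (0.983). CG9825 and CG14205 shared the high control replicate 1 of Chs2, at 49.1 CPM against 25.7 to 27.7 CPM in the other controls for CG9825 and 183 CPM against 106 to 111 CPM for CG14205. Nearest to Cda9 were CG4962 (r = 0.985), CG3032 (0.979) and scramb2 (0.978), of which CG4962 was at 5.54 ± 0.782 CPM in mutants and 1.81 ± 0.299 CPM in controls.

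Nearest to serp were CG6791 (r = 0.983), DNAlig3, a DNA ligase gene, and CG5098 (both 0.970). Nearest to verm, with lower values, were alrm, an astrocyte gene (r = 0.937), CG11504 (0.925) and the chitinase gene Cht5 (0.918). Cht5 was at 1.89 ± 0.171 CPM in mutants and 2.82 ± 1.02 CPM in controls, with an adjusted p of 0.134 (edgeR). Nearest to kkv were CG32137 (r = 0.978), vari, a septate junction gene (0.976), and Bruce, a gene of an inhibitor of cell death (0.974). Nearest to Cda5 were CG12581 (0.979), the neuronal adhesion gene Dscam4 (0.972) and CG7298 (0.970), which encodes a chitin-binding peritrophin-like protein and was at 20.3 ± 13.2 CPM in mutants and 103 ± 18.7 CPM in controls.

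Upstream of the synthases, the genes that turn sugar into UDP-N-acetylglucosamine mostly missed the threshold. Among 9 tested genes 6 missed the threshold, 2 fell and 1 rose, with a median log2 fold change of -0.12, against 0.01 for all tested genes. Gfat1, a gene of the first enzyme of the hexosamine pathway, fell to 25.4 ± 2.53 CPM in mutants, against 31.5 ± 2.14 CPM in controls (adjusted p 0.0185, edgeR), a call lost without control replicate 3 (0.053). Gfat2, the more abundant gene of that enzyme, was at 69.1 ± 2.88 CPM in mutants and 72.0 ± 9.89 CPM in controls (adjusted p 0.662, edgeR). nst, the phosphoacetylglucosamine mutase, fell to 84.6 ± 2.37 CPM in mutants, against 95.5 ± 4.30 CPM in controls (adjusted p 0.0203, edgeR), a call lost without control replicate 2 (0.0581) or mutant replicate 2 (0.0554). The hexokinase gene Hex-C was at 47.6 ± 4.27 CPM in mutants and 39.9 ± 3.42 CPM in controls, and its call (adjusted p 0.0411) was lost without any 1 of 6 of the libraries (0.0718 to 0.110). mmy, the pyrophosphorylase that makes the substrate itself, was at 97.6 to 99.3 CPM in mutants and 101 to 113 CPM in controls, with an adjusted p of 0.0891 (edgeR).

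Of 11 tested genes of chitin assembly, export and anchoring, 1 fell and none rose, with a median log2 fold change of -0.08. The one that fell was dpy, a very long protein of the tracheal and cuticular matrix, at 18.3 ± 0.785 CPM in mutants and 25.2 ± 2.46 CPM in controls (log2 fold change -0.46, adjusted p 0.00234, edgeR). With the offset for transcript length it was -0.02. knk, which encodes a protein that organises the new chitin, was at 1.47 to 2.37 CPM in mutants and 1.91 to 2.84 CPM in controls, with an adjusted p of 0.308, and exp, a membrane protein needed for chitin deposition by kkv, was at 2.77 to 3.66 CPM in mutants and 3.23 to 3.70 CPM in controls, with an adjusted p of 0.735 (edgeR).

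Of 18 tested genes of chitinases, chitinase-like growth factors and hexosaminidases, 12 missed the threshold, 4 rose and 2 fell, with a median log2 fold change of 0.13. Idgf2 and Idgf4, chitinase-like proteins without enzyme activity, rose to 184 ± 4.75 CPM in mutants, against 130 ± 10.7 CPM in controls, and to 390 ± 12.7 CPM in mutants, against 315 ± 18.7 CPM in controls. The others that rose were chitinase genes. Cht2 was at 54.3 ± 2.86 CPM in mutants and 44.9 ± 4.74 CPM in controls (adjusted p 0.0239, edgeR). Cht8 was at 31.3 ± 5.08 CPM in mutants and 20.9 ± 3.73 CPM in controls (adjusted p 0.0289, edgeR). Cht7 fell to 1.21 ± 0.0878 CPM in mutants, against 2.45 ± 0.422 CPM in controls (adjusted p 0.00315, edgeR). Cht4 fell to 7.12 ± 1.18 CPM in mutants, against 13.1 ± 3.87 CPM in controls (adjusted p 0.0203), and its call was lost without mutant replicates 1, 3 or 4 (0.0554 to 0.0569). Without control replicate 3 or control replicate 4, 2 genes of the list rose, and without mutant replicates 1, 3 or 4, 1 fell.

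Of 19 tested genes of the peritrophic matrix and of gut chitin-binding proteins, 9 missed the threshold, 8 fell and 2 rose, with a median log2 fold change of -0.65. This list was chosen with earlier results of these data known. CG10725 and CG10154, which code for chitin-binding proteins, fell and were at 2.91 ± 0.690 and 0.155 ± 0.0933 CPM in mutants, against 141 ± 49.6 and 13.5 ± 4.98 CPM in controls. Crys rose to 12.3 ± 1.71 CPM in mutants, against 6.83 ± 0.608 CPM in controls, and CG33258 to 55.1 ± 2.96 CPM in mutants, against 35.0 ± 5.06 CPM in controls. When both control replicate 2 and mutant replicate 2 were left out, 3 genes of this list fell and 2 rose.

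**Figure D5:**
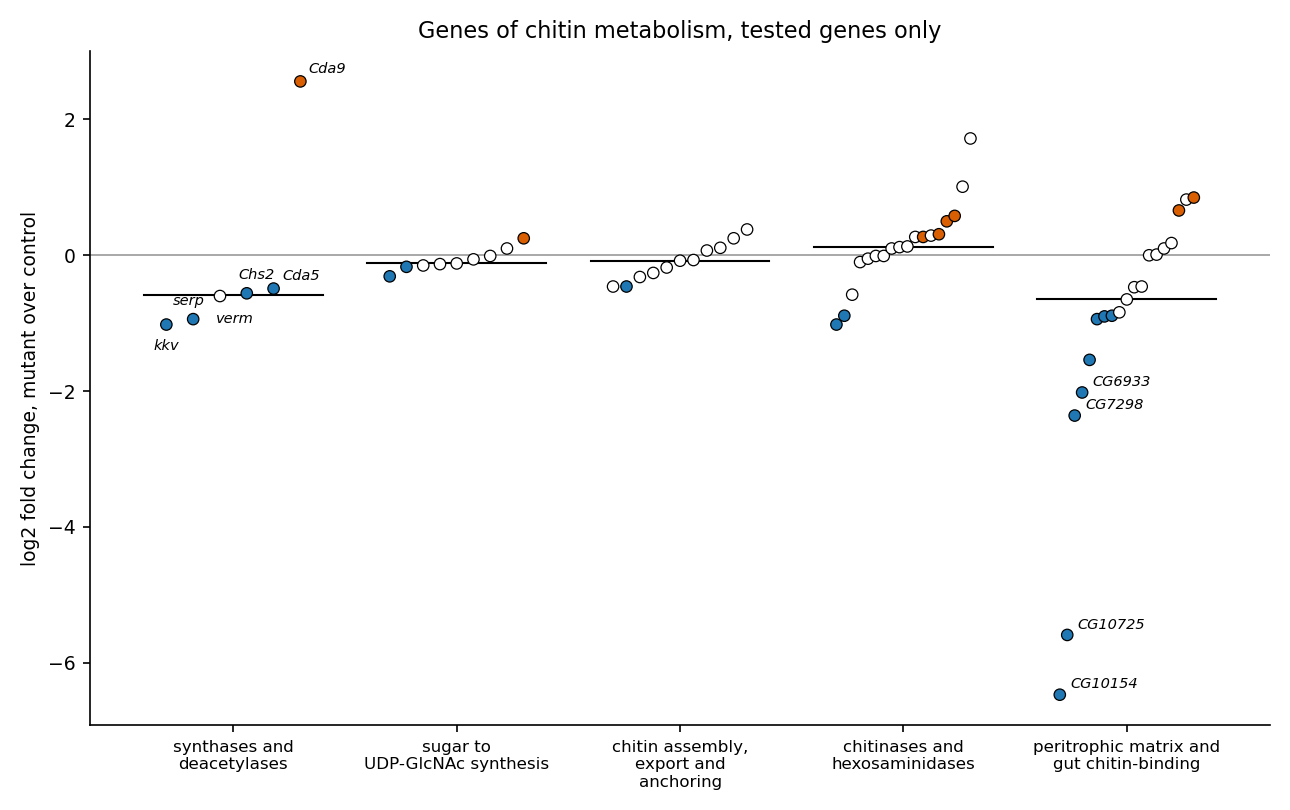
Log2 fold change of mutant over control (y axis) for the tested genes of chitin metabolism, in columns by step and sorted within each column, with a line at the column's median, orange for genes that rose, blue for genes that fell (adjusted p under 0.05, edgeR) and open points for the rest. The medians are -0.58, -0.12, -0.08, 0.13 and -0.65 for the columns in order, and Cda9 is the highest point of all columns.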

How the data were processed

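PolyA RNA of whole females was sequenced in 4 mutant and 4 control libraries. The authors deposited read counts per gene as whole numbers, not normalized. The submitters' processing notes name dm3 and DESeq without a role, and for the aligner, counting program and strand handling the sources used here give nothing. Rows carry CG numbers, of which 11482 of 12082 matched a locus tag of the RefSeq Release 6 table and 456 a synonym. Exonic lengths and neighbours come from the Ensembl annotation of Release 6, so no coordinates are given and levels per kb are approximate. None of the 7 genes shares an exon with another annotated gene.

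Counts were filtered with edgeR 4.0.16 (filterByExpr, minimum count 10), scaled with TMM and compared by its robust quasi-likelihood test in R 4.3.3, two-sided, with Benjamini-Hochberg adjustment over 10525 genes at a threshold of 0.05. Standard errors were derived from the size of each log2 fold change and its F statistic (log2 fold change over root F). Ratios used counts plus 0.5 and exact permutation tests over libraries. Alternatives were RLE and upper quartile scaling, no filter, DESeq2 1.42.0, a replicate block, a length offset (lowess span 0.5) and leaving out each library. Intervals from counts cover counting error only.

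The members and lists were chosen with earlier results of these data known. The rule for named genes takes the 7 members, Hr78 and btl, up to 4 called genes of each pathway list in order of adjusted p, and the 3 most alike genes per tested member. Other genes were named after their values were seen (Amy-d, Amy-p, Gfat2, mmy, knk, exp, Cht2, Cht8, P5CS, Act79B, Oct-TyrR, Oat and the tissue markers). Listed symbols without a row of their own were not analysed here.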

Additional observations from a re-analysis of the deposited data

Results flagged for a closer look

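Of 98 groups of 4 libraries (49 genes and ratios in both genotypes), 7 held a value far from the other 3. Chance gives about 1 in 20 for independent groups, but these groups are not independent. CG9825, CG14205 and CG3032 were named for following Chs2 or Cda9 over the same libraries, so they can share the outlying library of that member. Cda4 was at 0.0733 CPM in mutant replicate 2 and at 0.244 to 0.276 CPM in the other mutants. Cht7 was at 1.34 CPM in mutant replicate 3 and at 1.16 to 1.17 CPM in the other mutants. The remaining 5 were in controls. Cda9 was at 1.26 CPM in control replicate 2, against 0.448 to 0.538 CPM in the other controls, and CG3032 at 4.38 CPM, against 3.62 to 3.72 CPM. Control replicate 1 stood high for Chs2 at 48.6 CPM (34.8 to 36.9 CPM in the other controls), for CG9825 at 49.1 CPM (25.7 to 27.7 CPM) and for CG14205 at 183 CPM (106 to 111 CPM).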

How the results depend on the processing

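Of the 6 tested members, serp, Chs2, Cda5 and Cda9 kept their direction and call under all 15 alternatives, and verm passed under none. Leaving out 1 library gave log2 fold changes of -1.24 to -0.87 for kkv, -0.61 to -0.43 for Chs2, -1.06 to -0.75 for serp, -0.83 to -0.28 for verm, -0.57 to -0.45 for Cda5 and 2.38 to 3.03 for Cda9. The kkv call was lost with no filter on low counts (-1.01) and without both control replicate 2 and mutant replicate 2 (-0.87); the fit without both was added after seeing the data. Upper quartile scaling gave 1499 genes higher and 872 lower, against 890 and 1173 with TMM. Deviations of same-numbered libraries had correlations of -0.097 to 0.207, the highest for replicate 1. Only for replicate 1 was the closest control of a mutant library the one of its own number. Pairing by replicate number was thus neither shown nor excluded. With the replicate block, 2405 genes passed, against 2063 without it, and no member's call changed. The log2 ratio of Cda9 to Chs2 differed by 3.19 with the block. With 1 library left out that ratio differed by 2.92 to 3.55. The share of Cda9 was 17.0 points higher in CPM without length correction, and 35.2 to 38.3 points with 1 library left out. Of sugar genes, 0 rose with no filter, the replicate block, the length offset or both libraries left out, and 0 to 2 with 1 left out. Of the same list, 1 fell with upper quartile scaling or without both, and 1 to 3 with 1 left out. Of assembly genes, 0 fell with the length offset. Of chitinases, 2 to 5 rose and 1 to 3 fell with 1 library left out, and of peritrophic genes 3 fell without both and 7 to 8 with 1 left out. The log2 fold change of Bruce changed sign to 0.02 with the length offset (adjusted p 0.868, edgeR). The cause was not tested where no value shows it. Depth limits Cda4 and kkv, with 23 and 59 reads in all mutant libraries and 44 and 99 in all control libraries.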

Other observations

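The next tested gene to Cda9 on 2R was Amy-d, a gene of the starch-digesting enzyme amylase, which was looked at after its value was seen. Amy-d rose to 28.7 ± 5.61 CPM in mutants, against 11.3 ± 0.819 CPM in controls (log2 fold change 1.35, adjusted p 0.000246, edgeR). Its near-identical copy Amy-p, the gene after it, was at 89.0 ± 15.4 CPM in mutants and 86.8 ± 20.1 CPM in controls (log2 fold change 0.03, adjusted p 0.927, edgeR), and how the authors' counting split reads between the copies is uncertain. Of the 10 tested neighbours of Cda9, 5 on each side, 2 were higher and none lower in the mutant, with a median log2 fold change of 0.08. Among all tested genes 8.46% were higher and 11.1% lower. Of the 10 tested neighbours of Chs2, 3 were lower and none higher. These lay next to it on 1 side: P5CS (log2 fold change -0.47), Act79B (-0.36) and Oct-TyrR (-0.53). Of 10 neighbours each, 1 was lower for serp and 2 for verm, and none higher. As serp and verm are adjacent, most of their neighbours are the same genes. The lower neighbour of serp was Oat (log2 fold change -0.65), and those of verm were Oat and serp itself. kkv had 1 higher and 1 lower of 10, and Cda5 had none called of 7. The part of position in these values was not tested. Chs2, serp and verm lie on 3L as Hr78 does, with 49, 181 and 182 tested genes between them and Hr78. On 3L, 21.1% of tested genes passed the threshold, against 16.8% to 22.9% on the other large arms.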
